A study of Mus musculus with 8 samples.

Results

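Sox5 and Sox6 are the SoxD transcription factors that act beside Sox9 in cartilage. The 2 genes were followed in 8 Illumina mouse WG-6 arrays of sorted cells from the E12.5 vertebral column. Their probes were found by the NCBI gene identifier held, padded with zeros, in the row names of the deposited values, and were joined to the intensity table by equal rows of 8 values. This gave 4 probes, 2 for each gene, of the 46643 probes on the array, and these are 2 of the 7111 genes that could be named in this way. The third SoxD gene, Sox13, and Sox9 itself had no named probe and are not analysed here.

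The 4 HOMO arrays came from Sox9 HOMO cells of a C57BL/6J;129 background, in which EGFP had replaced Sox9. They were taken from chimaeric embryos, because embryos homozygous for the allele do not survive to this stage. The 4 WT arrays came from Sox9 WT cells of the same background and stage, from embryos heterozygous for an allele in which EGFP was tied through an IRES to the Sox9 transcript behind its coding part. In both groups the vertebral column was dissected and the EGFP-positive cells were sorted, so that the Sox9 locus drove the reporter in each case. The HOMO cells therefore differ from the WT cells in Sox9, in the reporter allele and in their chimaeric origin, and these cannot be told apart. The methods describe 4 biological replicates for each genotype, but nothing says how many embryos went into each.

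Sox5 and Sox6 carry the HMG box shared by all Sox proteins and a coiled coil through which they pair with each other, but no activation domain of their own. In mouse cartilage they are switched on with or after Sox9, and they help Sox9 to act on enhancers of Col2a1, Acan and other matrix genes. Mice that lack both genes form condensations but hardly any cartilage. Both are also used outside the skeleton, Sox6 in red cell and muscle development and Sox5 in neurons and neural crest.

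All Sox proteins bind short sites built on the core CAAAG or CAATG. The promoter windows of both genes are shown because they are where a Sox factor could meet these genes near their start. The RefSeq table used (GRCm38.p6) holds 1 window of 300 bases for Sox5, on chr6:143947057-143947356, and 6 for Sox6, all on the minus strand. The search covered both strands for AACAAAG and its variants with A or T at the first, the second and the sixth base, 8 heptamers in all that may overlap, and 24.6% of all 32851 windows held at least 1. The Sox5 window held none. Each of the 6 Sox6 windows held at least 1, and 10 matches were found in all. The Sox6 windows are alternative starts of 1 gene, and which of them these cells use was not measured. Only the matches to AACAAAG are printed, and those to the other heptamers, such as AACAATG in Sox6 window 5, are not. They are given 5′ to 3′ on the gene strand with the match in capitals, where CTTTGTT is AACAAAG read on the opposite strand.
Sox6 window 1, chr7:116038843-116038867: tttttcaggAACAAAGggaatgtgg
Sox6 window 3, chr7:115995213-115995237: caagccggcCTTTGTTagtcattgt
Sox6 window 4, chr7:115846170-115846194: aatgtgcaaAACAAAGataaaagct
These letters describe the windows only, and binding was not measured in the arrays used here.

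The arrays of the 2 groups differed in overall signal, which bears on every value below. Mean intensity was 5.21 to 10.5 on the HOMO arrays and 285.2 to 364.1 on the WT arrays, a 41.7-fold difference of the group means. A probe was taken as detected where the deposited detection value, which runs from 0 for dim to 1 for bright probes, was above 0.95. By this measure 15.5% to 20.2% of probes were detected on the HOMO arrays and 43.7% to 45.8% on the WT arrays. No HOMO array reached the signal of any WT array, so overall signal and genotype cannot be told apart, and less RNA on an array cannot be told from fewer transcripts in a cell. The dimmest detected probe had an intensity of 7.9 to 9.0 on the HOMO arrays and 16.5 to 18.4 on the WT arrays. Among the reporter probes, eGFP was detected on 0 of 4 HOMO arrays (intensity -5.0 to -1.1) and on 4 of 4 WT arrays (92.4 to 116.6), although both groups were sorted on EGFP. The probe for the NeoR selection gene was detected on every array, at 10.2 to 29.0 in HOMO and 1108 to 1597 in WT.

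Sox5 was among the bright transcripts of WT cells and one of its probes was still detected in HOMO cells. Probe A of Sox5 (scl0020678.1_3) gave intensities of 24.3, 12.6, 15.8 and 21.2 on HOMO arrays 1 to 4, against 1763.6, 1621.7, 1835.4 and 2015.5 on WT arrays 1 to 4. It was detected on all 8 arrays. The HOMO mean of 18.5 ± 5.26 stood against a WT mean of 1809 ± 164 (SD, n = 4 each), which is 97.9-fold higher in WT and a larger gap than the 41.7-fold gap in overall signal. The lowest HOMO value was that of array 2 and the groups did not overlap. A lower HOMO intensity was the rule, since with no scaling between arrays 95.0% of 21002 tested probes were called lower in HOMO.

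Probe B of Sox5 (scl020678.1_3) was dimmer and was undetected on the HOMO arrays. Its intensities were 4.3, 2.1, 1.5 and 5.9 on HOMO arrays 1 to 4, against 391.1, 436.5, 384.8 and 492.7 on WT arrays 1 to 4. All 4 HOMO values lay below the dimmest detected probe of their array, so the probe had no measured level there. Its loss of detection cannot be told apart from the 41.7-fold gap in mean intensity between the groups. Both Sox5 probes were thus far dimmer in HOMO cells than in WT cells on the deposited scale.

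Sox6 was a weak signal in WT cells, and only 1 of its 2 probes was detected on the HOMO arrays. Probe A of Sox6 (scl0020679.1_64) gave 14.7, 15.4, 13.8 and 10.9 on HOMO arrays 1 to 4, against 61.7, 73.3, 56.1 and 67.7 on WT arrays 1 to 4. It was detected on all 8 arrays, with a HOMO mean of 13.7 ± 1.98 and a WT mean of 64.7 ± 7.44 (SD, n = 4 each). The 4.72-fold gap was far smaller than the gap in overall signal. The groups did not overlap, but a lower HOMO intensity was the rule, as said for Sox5.

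Probe B of Sox6 (scl020679.1_35) was at least as bright as probe A on the WT arrays but was undetected on the HOMO arrays. Its intensities were -0.7, -1.6, -3.5 and -0.5 on HOMO arrays 1 to 4, against 66.2, 89.4, 79.6 and 104.0 on WT arrays 1 to 4. It was detected on 0 of 4 HOMO arrays and 4 of 4 WT arrays. With so weak a WT signal, this cannot be told apart from the 41.7-fold gap in mean intensity between the groups. The sequences and transcript positions of the probes were not used here, so whether the 2 probes of a gene read the same transcripts is not known. Levels of different probes cannot be set against each other as amounts of RNA, since each probe binds with its own strength.

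**Figure D1:**
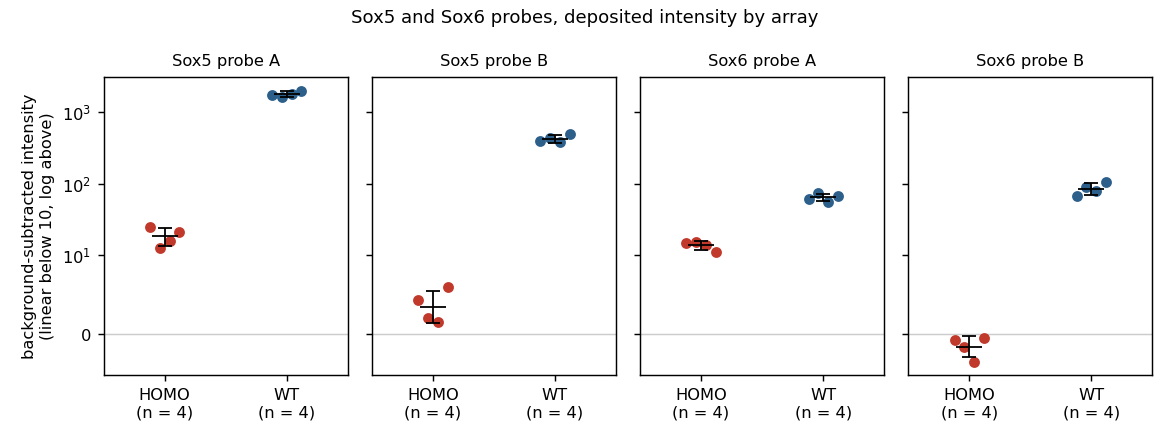
Background-subtracted intensity of the 4 probes (vertical axis, linear below 10 and logarithmic above) on each of 4 HOMO and 4 WT arrays, with the mean and SD in black. The HOMO and WT values of all 4 probes lay apart, with HOMO the dimmer, and Sox6 probe A was the closest between groups, at 10.9 to 15.4 in HOMO and 56.1 to 73.3 in WT. Unscaled, 95.0% of 21002 tested probes were called lower in HOMO.

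To ask how the genes stood among the other transcripts of the same array, each probe was ranked from the brightest of 46628 non-control probes, which needs no scaling between arrays. Sox5 probe A lay at the top 6.78%, 11.5%, 7.09% and 7.32% on HOMO arrays 1 to 4, against the top 4.15%, 5.07%, 3.29% and 3.39% on WT arrays 1 to 4. It thus stood lower among the probes of each HOMO array, by 4.19 percentage points on average. Sox5 probe B moved the same way, to the top 35.0% ± 8.02 in HOMO against the top 13.1% ± 1.06 in WT (SD, n = 4 each), although its HOMO ranks are those of an undetected probe.

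The Sox6 probes went opposite ways in rank. Sox6 probe A lay at the top 12.2%, 8.89%, 8.57% and 15.1% on HOMO arrays 1 to 4, against the top 30.6%, 29.6%, 29.6% and 29.3% on WT arrays 1 to 4. Sox6 probe B lay at the top 68.4% ± 9.99 in HOMO, within the undetected probes, against the top 27.4% ± 1.92 in WT (SD, n = 4 each). Each of the 4 rank differences separated all HOMO from all WT arrays, with a two-sided exact permutation p of 0.0286, which is the smallest p that 4 against 4 arrays allow, and 0.0286 after Benjamini-Hochberg adjustment over the 4 probes. The share of all probes whose ranks separated the groups was not counted, so this separation is not shown to be particular to these probes. Fewer probes were detected in HOMO, so the rank of a dim but detected probe moves up with that number alone. When only the 5101 probes detected on all 8 arrays were ranked, Sox6 probe A lay at the top 81.3% in HOMO and 81.5% in WT (exact permutation p = 1). In the same ranking Sox5 probe A lay at the top 66.6% in HOMO and 30.8% in WT, so that it still stood lower in HOMO (exact permutation p = 0.0286).

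**Figure D2:**
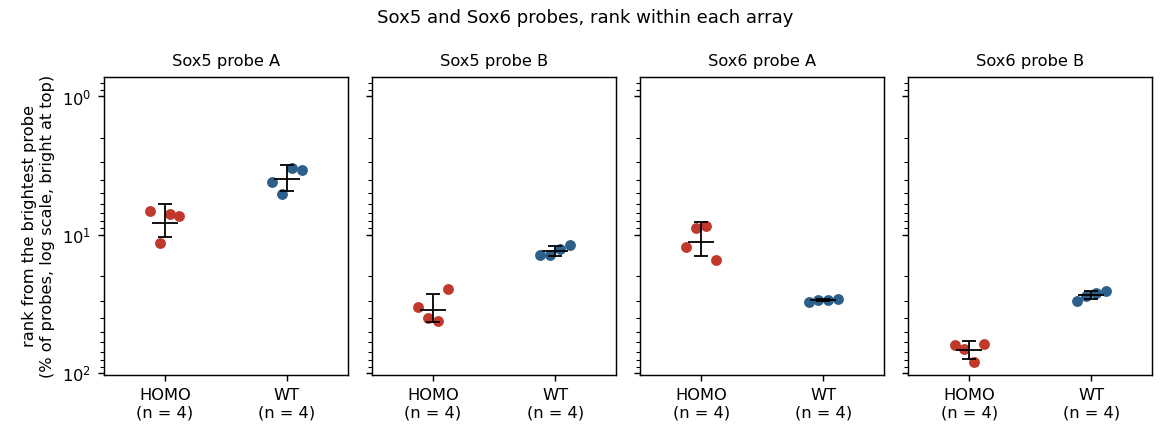
Rank of each probe within its array, as a percentage of 46628 probes counted from the brightest (logarithmic axis, bright at the top), for 4 HOMO and 4 WT arrays, with the mean and SD in black. Both Sox5 probes and Sox6 probe B stood lower in HOMO, while Sox6 probe A stood at the top 8.57% to 15.1% in HOMO and 29.3% to 30.6% in WT.

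The groups were then compared on a common scale. Intensities were corrected for background with normexp, quantile-normalized and taken to log2, and 21002 probes detected on at least 3 of the 8 arrays were tested with limma. Of these, 73.3% had an adjusted p no greater than 0.05 and were called, 24.8% higher and 48.5% lower in HOMO. All 4 Sox5 and Sox6 probes passed the filter and all 4 were called, which against such a background says little about these genes. The B probes, detected on no HOMO array, passed the filter through WT alone. The median difference of all tested probes was -0.56.

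On this scale Sox5 was lower in HOMO with both probes. Probe A averaged 8.80 ± 0.44 in HOMO and 9.86 ± 0.27 in WT (SD, n = 4 each), a log2 difference of -1.06 ± 0.24 (SE; limma adjusted p = 0.0041). Relative to the median of all tested probes the difference was -0.50, but this relative value ran from -2.91 with median centring of normexp values to 0.34 with no normexp, so whether Sox5 fell more than the typical probe depended on the processing. Probe B, with no detected signal in HOMO, was called at an adjusted p of 8.9e-05 in limma and was at least 1.72-fold lower in HOMO, measured against the dimmest detected probe of each HOMO array. The negative sign of the probe A difference was kept in every processing tried, but its size was not, and it ran from -6.66 with no scaling between arrays to -0.80 with quantile normalization of log2 values.

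Sox6 did not give 1 answer. Probe A averaged 8.23 ± 0.56 in HOMO and 5.66 ± 0.05 in WT (SD, n = 4 each), a log2 difference of 2.57 ± 0.26 (SE; limma adjusted p = 3.2e-05), while its deposited intensity was lower on every HOMO array. Without scaling between arrays the difference reversed to -2.24 (limma adjusted p = 1.9e-06), and over the probes detected on all 8 arrays it was 0.31 and not called (limma adjusted p = 0.56). The dimmest detected probe averaged 7.09 on the normalized scale in HOMO and 4.76 in WT, so a probe at 5.66 in WT must come out higher in HOMO once all 4 arrays detect it. Probe B was called lower (limma adjusted p = 2e-05), but its WT level of 5.92 lies below what could be detected in HOMO, so its fall was not measured and no fold is given.

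**Figure D3:**
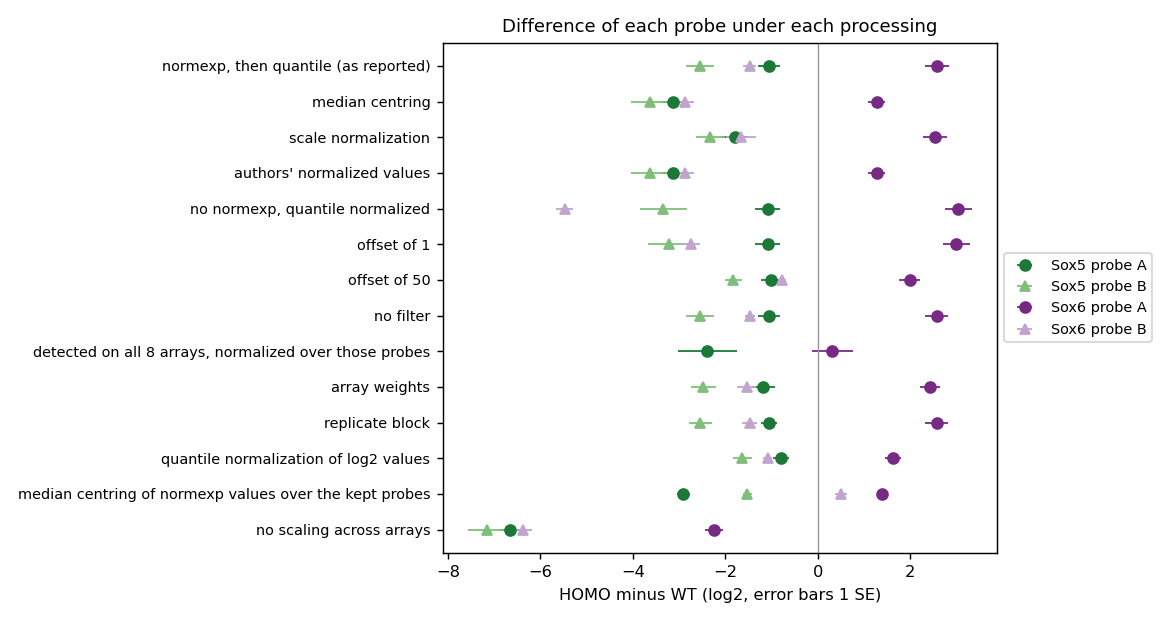
Log2 difference, HOMO minus WT, of each probe (horizontal axis, error bars 1 SE) under each processing (rows). Sox5 probe A stayed below 0 throughout, and Sox6 probe A was above 0 in every scaled setting and at -2.24 with no scaling between arrays. The B probes were undetected in HOMO, so their points show fitted values and not measured differences.

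Ratios between probes of the same array do not move with an array's overall gain. They were taken for probe A of each Sox gene and for 1 probe of Col2a1, the type II collagen gene on whose enhancers Sox9, Sox5 and Sox6 act. The Col2a1 probe of higher mean normalized level was used. This probe gave 64.4, 27.2, 17.4 and 55.8 on HOMO arrays 1 to 4, against 7017.5, 6862.5, 8616.5 and 10041.7 on WT arrays 1 to 4, and was 197-fold higher in WT by the group means. Its normalized log2 difference was -2.06 ± 0.30 (SE; limma adjusted p = 0.00029). The other Col2a1 probe gave 37.9, 15.0, 3.8 and 18.6 on HOMO arrays 1 to 4, where it was undetected on array 3. On WT arrays 1 to 4 it gave 7593.4, 7091.1, 7581.1 and 10366.8.

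The Sox6 to Sox5 intensity ratio was 0.605, 1.22, 0.873 and 0.514 on HOMO arrays 1 to 4, against 0.035, 0.0452, 0.0306 and 0.0336 on WT arrays 1 to 4. The log2 ratio averaged -0.40 ± 0.56 in HOMO and -4.81 ± 0.24 in WT (SD, n = 4 each), a difference of 4.41. The intensity of probe A thus fell more for Sox5 than for Sox6. The dimmest detected probe of a HOMO array was at 7.9 to 9.0. Sox6 probe A, at 64.7 in WT, had little room to fall and stay detected, while Sox5, at 1809, had far more. The difference in ratio therefore cannot be told apart from the limit of detection. The smaller fall of Sox6 holds for probe A only, since Sox6 probe B was undetected in HOMO and its fall has no upper limit.

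The Sox5 to Col2a1 ratio was 0.377, 0.463, 0.908 and 0.38 on HOMO arrays 1 to 4, against 0.251, 0.236, 0.213 and 0.201 on WT arrays 1 to 4. Its log2 value averaged -1.01 ± 0.60 in HOMO and -2.16 ± 0.15 in WT (SD, n = 4 each), a difference of 1.14. Sox5 thus lost less of its intensity than the collagen gene did, and HOMO array 3 lay apart from the other HOMO arrays. The Sox6 to Col2a1 log2 ratio averaged -1.41 ± 0.99 in HOMO and -6.96 ± 0.34 in WT (SD, n = 4 each), a difference of 5.55. Each of the 3 ratios separated all HOMO from all WT arrays (two-sided exact permutation p = 0.0286, and 0.0286 after adjustment over the 3). The share of all probe pairs whose ratios separate the groups was not counted. The separation is therefore not shown to be particular to these genes. For the ratios with Sox6 this separation cannot be told apart from the limit of detection either. The HOMO intensities of Sox6 probe A lay only just above the dimmest detected probe of their arrays, and an error in the subtracted background moves such a ratio most. On HOMO array 3 Sox5 probe A (15.8) and Col2a1 (17.4) were also near the dimmest detected probe (8.2). Without that array the Sox5 to Col2a1 difference was 0.85.

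**Figure D4:**
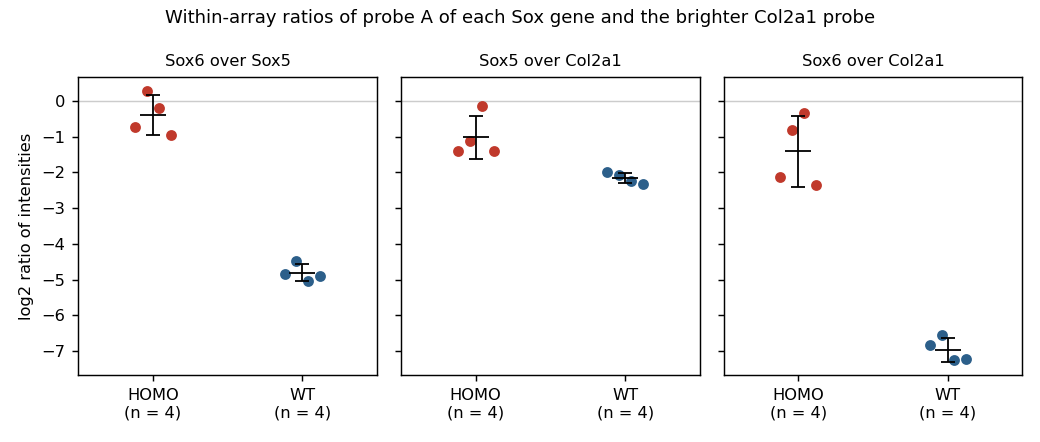
Log2 ratio of intensities within each array (vertical axis) for Sox6 over Sox5, Sox5 over Col2a1 and Sox6 over Col2a1, in 4 HOMO and 4 WT arrays, with the mean and SD in black. All 3 ratios were higher in HOMO with no overlap of the groups, by 4.41, 1.14 and 5.55 on average. How many other probe pairs separate in this way was not counted. Sox6 probe A lay close to the limit of detection in HOMO.

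Other Sox genes were read for comparison, each by its tested probe of highest mean normalized level. Of 16 listed, 5 had a named probe and 4 passed the filter, of which 1 was called higher and 2 lower in HOMO. This is close to the 24.8% called higher and 48.5% called lower over all tested probes. Sox4, a SoxC factor of progenitor cells, gave 90.8, 124.9, 82.6 and 101.1 on HOMO arrays 1 to 4, against 2469.7, 3622.6, 1886.4 and 2198.5 on WT arrays 1 to 4. Its normalized difference was 0.97 ± 0.24 (SE; limma adjusted p = 0.0055), whereas median centring gave -1.13. Sox11, the SoxC partner of Sox4, gave 48.8, 33.9, 36.8 and 47.7 on HOMO arrays 1 to 4, against 3433.8, 5058.8, 1811.5 and 1994.4 on WT arrays 1 to 4, with a difference of -0.23 ± 0.28 (SE; limma adjusted p = 0.47).

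The SoxB genes of neural progenitors were detected on the WT arrays only. Sox21 gave 7.5, 2.5, 3.1 and 4.8 on HOMO arrays 1 to 4, against 998.8, 1312.2, 536.8 and 607.1 on WT arrays 1 to 4, and was at least 3.16-fold lower in HOMO on the normalized scale (limma adjusted p = 4.5e-05). Sox2 was undetected on the 4 HOMO arrays and gave 106.4 to 481.3 on the WT arrays, too low for a fold (limma adjusted p = 0.00044). Sox21 and Sox2 passed the filter through WT alone. Sox4, Sox11, Sox21 and Sox2 were all highest on WT array 2, while Sox5 probe A was lowest there among the WT arrays.

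**Figure D5:**
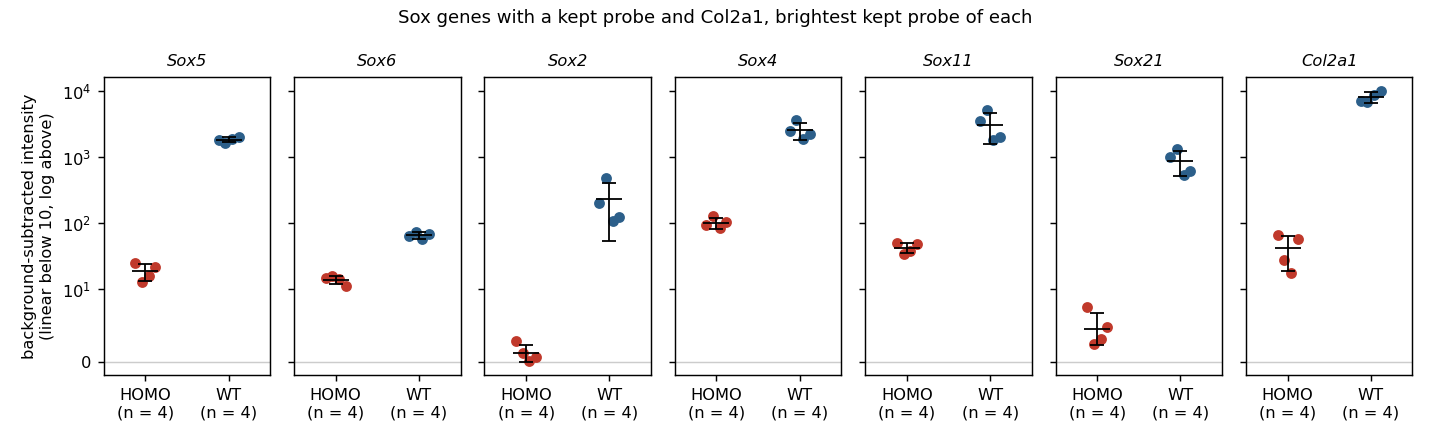
Background-subtracted intensity (vertical axis, linear below 10 and logarithmic above) of 6 Sox genes and Col2a1 on 4 HOMO and 4 WT arrays, with the mean and SD in black. Each gene is drawn by its tested probe of highest mean normalized level. Every probe drawn was dimmer in HOMO with no overlap of the groups. Sox6 probe A was the closest between groups, and Sox2 and Sox21 were undetected in HOMO. Sox6 probe B, not drawn, had a higher WT mean than probe A (84.8 against 64.7) and was undetected in HOMO. Unscaled, 95.0% of 21002 tested probes were called lower in HOMO.

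Most of the tested cartilage genes on which the Sox trio acts were lower in HOMO. Of 24 listed genes, 10 passed the filter, of which 7 were called lower, 1 higher and 2 not called, and their median difference was -2.14 beside -0.56 over all probes tested. Over all tested probes 48.5% were called lower and 24.8% higher. Of the 11 listed genes with a probe, 6 were detected on no HOMO array. The median thus rests in part on fitted values that are not measured differences. Col9a2, Col27a1, Mia and Papss2, all called lower, were detected on 4 of 4 WT arrays and 0 of 4 HOMO arrays. They passed the filter through WT alone, which favours a lower HOMO value. Mia, a secreted cartilage protein, was at least 5.67-fold lower in HOMO, and Col9a2, a chain of type IX collagen, at least 5.15-fold lower. Col27a1, a fibrillar collagen, was at least 1.23-fold lower, and Papss2, an enzyme that supplies activated sulfate, was undetected in HOMO with no fold to give. Hspg2, perlecan, was the gene called higher (0.88 ± 0.30, SE; limma adjusted p = 0.025), whereas median centring gave -1.31.

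The sclerotome and skeletal regulators were split. Of 16 listed, 7 passed the filter, with 3 called higher, 2 lower and 2 not called, and a median of 1.08. Over all tested probes 24.8% were called higher and 48.5% lower, with a median of -0.56. Pax1, the sclerotome factor upstream of cartilage, gave 151.6 to 238.3 in HOMO and 2378 to 2759 in WT, a normalized difference of 1.81 ± 0.15 (SE; limma adjusted p = 8.6e-06), whereas median centring gave -0.19. Mef2c, which acts in chondrocyte maturation, differed by 1.08 ± 0.15 (SE; limma adjusted p = 0.00027), but by -1.03 with median centring. Prrx1, a mesenchymal homeobox factor, fell at least 1.47-fold. Tbx18, which patterns the sclerotome, was undetected in HOMO with no fold to give. Prrx1 and Tbx18, the 2 genes called lower, passed the filter through WT alone.

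Because Sox5 and Sox6 also act in other lineages, markers of those cells were read beside them. The 4 erythroid genes with a probe summed to 36.5 to 776.0 in HOMO and 2582 to 7074 in WT. Of these, 2 were called higher on the normalized scale, Hbb-b1 (0.90 ± 0.21, SE; limma adjusted p = 0.0045) and Hba-x (1.80 ± 0.68, SE; limma adjusted p = 0.041), and both calls were lost with median centring. Over all tested probes 24.8% were called higher. Hbb-b1 was detected on 4 of 4 HOMO arrays and averaged 6.38 in WT. That lies below the dimmest detected probe in HOMO, at 7.09 on average, so Hbb-b1 had to come out higher. Hba-a1 (2.03 ± 0.83, SE; limma adjusted p = 0.054) and Hbb-y (-0.05 ± 1.29, SE; limma adjusted p = 0.97) were not called.

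Neural markers were plainly present in the WT cells. The 12 neural progenitor and neuron genes with a probe summed to 43.4 to 69.0 in HOMO and 4396 to 14578 in WT, and Nefl was detected on no array. Of the 11 tested, 9 were called lower, 1 higher and 1 not called, with a median of -2.15. Over all tested probes 48.5% were called lower and 24.8% higher. Of the 12 genes with a probe, 7 were detected on no HOMO array. Sox2, Nes, Elavl4, Nefm, Map2 and Syp, all called lower, were among them and passed the filter through WT alone. The median is the fitted value of Sox2, 1 of these genes, and is not a measured difference. Nefm, a neurofilament, was at least 1.62-fold lower, Nes, an intermediate filament of progenitors, at least 1.14-fold lower, and Gap43, a growth cone protein, differed by -3.08 ± 0.38 (SE; limma adjusted p = 0.00012). Snap25, a synaptic protein, was the one called higher (4.05 ± 0.23, SE; limma adjusted p = 1.3e-06), with mean intensities of 18.1 in HOMO and 19.9 in WT. It was detected on 4 of 4 HOMO arrays and 2 of 4 WT arrays. Its normalized WT level of 4.82 lay below the dimmest detected probe in HOMO, which averaged 7.09. It therefore had to come out higher, and the call is not a measured rise.

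Muscle and neural crest were hardly covered. Of 13 skeletal muscle genes only Myh7 had a probe, undetected in HOMO and at 34.7 to 111.2 in WT. Of 13 genes of neural crest, melanocytes and oligodendrocytes, 4 had a probe, Olig2 and Foxd3 were detected on no array, and only Ets1 was tested. Ets1 was called higher (2.78 ± 0.23, SE; limma adjusted p = 9.3e-06) with mean intensities of 9.53 in HOMO and 10.8 in WT. It was detected on 4 of 4 HOMO arrays and 0 of 4 WT arrays, so it passed the filter through HOMO alone. Its normalized WT level of 4.61 lay below the dimmest detected probe in HOMO, which averaged 7.09. The call was thus set by the limit of detection and is not a measured rise. The part of these other cells in the Sox5 and Sox6 values was not tested.

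The genes whose normalized levels followed Sox5 and Sox6 most closely over the 8 arrays were also read, as a description in which the arrays of a group share their overall signal. For Sox5 probe A they were Asph (r = 0.99), Napg (0.99), Ppfia1 (0.98), Rbbp4 (0.98) and Prrx1 (0.98). These were well detected in WT, at 293.7 to 2201 over the 5 genes, and dim in HOMO. For Sox6 probe A they were Ptger4 (r = 0.999), Oxtr (0.997), Hsbp1l1 (0.997), 1700001F09Rik (0.996) and 1700020G17Rik (0.996). Such values were common, since 13.6% of the 5600 named probes had an r above 0.9 with Sox6 probe A and 3.73% with Sox5 probe A, and within the 4 WT arrays r was 0.16 for Ptger4 and 0.45 for 1700001F09Rik. None of these 5 was detected on more than 3 of 4 WT arrays, at -1.4 to 33.2 in WT and 6.8 to 11.9 in HOMO, so Sox6 probe A moved with probes that lie near the limit of detection in both groups.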

How the data were processed

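Total RNA was hybridized to 4 HOMO and 4 WT Illumina WG-6 arrays, whose version the labels and the methods name differently. The authors deposited background-subtracted intensity values from GenomeStudio (version not given in the sources used here), which can be negative, with a column headed detection p-value that runs from 0 for dim to 1 for bright probes. It was read as 1 minus a p. The authors also deposited log2 values, equal, but for an offset of each probe, to median-centred logs of intensities floored at 1.

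Background was corrected by normexp, using the detection values and an offset of 16, before quantile normalization and log2, as in neqc of limma 3.58.1 (R 4.3.3). Probes with a detection value above 0.95 on at least 3 of 8 arrays were kept, and 3 control probes were left out. Genotype was tested with lmFit and eBayes, two-sided, with Benjamini-Hochberg adjustment over 21002 probes. Differences are HOMO minus WT. The order of the quantile and log2 steps was settled after results had been seen. Quantile normalization of log2 values was run first, and the linear-scale order was adopted once its values were found to match an earlier analysis of these data and limma's own procedure. The first version is kept as an alternative. Besides the reported setting, 10 alternatives listed at the outset, 8 fits leaving out 1 array and 3 alternatives added after seeing the data were run. A probe undetected in every array of a group has a bound only, taken against the dimmest detected probe of each array. Exact permutation tests used Python 3.11.15 with scipy 1.17.1.

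The members and gene lists were chosen with earlier results of these data known. Named genes were all probes of both genes, every tested Sox gene, Col2a1, up to 4 genes of smallest p in each other list and the 5 genes most correlated with each member. Hspg2, the only cartilage gene called higher, was named after its values were seen. Row names gave a symbol for 8407 of 46643 probes. The number of arrays limits the precision. The fit was tested on simulated data with known folds.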

Additional observations from a re-analysis of the deposited data

Results flagged for a closer look

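HOMO array 2 stood apart from the other HOMO arrays for Sox5 probe A. Its normalized log2 level was 8.15, against 8.97 for the nearest other HOMO array, and its rank was the top 11.5%, against the top 7.32%. The gap took up 0.873 of the group's range for the level and 0.884 for the rank, above Dixon's critical value for 4 values. Among 40 groups of 4 values examined, 2 passed this limit, and chance passes about 1 in 20. Without this array the log2 difference of Sox5 probe A was -0.84 and stayed called (limma adjusted p = 0.0036).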

How the results depend on the processing

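For probe A of both genes, 24 of 26 differences under other processings kept their direction and their call, as did all 16 that left out 1 array. The exceptions were Sox6 probe A over the probes detected on all 8 arrays (0.31) and with no scaling between arrays (-2.24), a setting added after seeing the data, and the causes were not tested. The 26 are not all separate checks. The authors' values gave the same differences as median centring. Leaving out the filter or adding the replicate block returned the reported difference unchanged. Leaving out 1 array gave -1.17 to -0.84 for Sox5 probe A and 2.47 to 2.86 for Sox6 probe A. The B probes were undetected in HOMO, so their fitted differences are not measurements and say nothing about stability. Those of Sox5 probe B were -2.94 to -2.38 and those of Sox6 probe B -1.59 to -1.30 on leaving out 1 array, and Sox6 probe B came to 0.50 with median centring of normexp values, also added after seeing the data.

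Probes called numbered 2756 of the 5101 detected on all 8 arrays (1492 higher, 1264 lower in HOMO), against 15398. Those called higher numbered 3285 with median centring and with the authors' values, 8522 without a filter, 9456 with median centring of normexp values and 43 with no scaling, where 19962 were called lower. Leaving out 1 array gave 13989 to 15400 calls, 4757 to 5212 higher and 9215 to 10405 lower. With the replicate number as a block, Sox5 probe A stayed at -1.06 (limma adjusted p = 0.0032), all 4 probes stayed called and 14806 probes were called. The numbers did not pair the arrays (correlation of deviations -0.033 to 0.028, 1 of 4 HOMO arrays best with its own number).

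The rank difference of Sox6 probe A was -0.22 points over the probes detected on all 8 arrays. The Sox5 to Col2a1 difference was 1.93 with the other Col2a1 probe, which was detected on 3 of 4 HOMO arrays. The B probes were undetected in HOMO and gave no ratios. Leaving out 1 array gave rank differences of 3.09 to 4.65, 19.5 to 25.4, -19.9 to -17.7 and 36.1 to 43.4 points for Sox5 probes A and B and Sox6 probes A and B, and ratio differences of 4.18 to 4.60 for Sox6 over Sox5, 0.85 to 1.27 for Sox5 over Col2a1 and 5.19 to 5.87 for Sox6 over Col2a1. With median centring, genes called higher and lower in HOMO numbered 0 and 4 for the other Sox genes, 0 and 9 for the cartilage genes, 1 and 5 for the sclerotome and skeletal regulators, and 0 and 0 for the erythroid genes.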
